A study of Mus musculus with 8 samples.

Results

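The 54 genes encode parts of the nuclear lamina, the nuclear pore and the nuclear envelope, whose inner membrane holds the lamin B receptor LBR. They were chosen by name: the lamins and the enzymes that process them, LEM domain, SUN, KASH and torsin proteins, other inner membrane proteins, the HP1 proteins that bind LBR, and nucleoporins. All 54 had a row in the counts table of 49671 genes, and all 54 were among the 13117 genes with enough reads to be tested. A total of 27 belong to the lamina and envelope and 27 to the pore, and they lie on 17 chromosomes. RNA-seq was done on whole liver of post-weaning C57BL/6 mice, with 2 libraries for each sex in WT and in NT-KO. NT-KO mice carry on both alleles a CRISPR/Cas9 deletion over the first translation start of Lbr. This deletion is predicted to leave a protein without its N-terminal Tudor and RS domains but with its sterol reductase part. In the paper, western blot and mass spectrometry of spleen and small intestine favoured a start further downstream. Its discussion also names a severe reduction of the protein. The line goes back to a single male founder that was bred with C57BL/6N females, and WT mice have the intact gene. The comparisons ask whether losing the N-terminus of LBR changes the RNA of these 54 genes in either sex. They also ask how these genes differ between male and female liver.

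The nuclear lamina is a mesh of lamin filaments under the inner nuclear membrane that holds heterochromatin at the edge of the nucleus. Inner membrane proteins such as emerin and LBR tie this mesh to chromatin, and SUN and KASH proteins tie it across both membranes to the cytoskeleton. Nuclear pores are rings of nucleoporins set in the envelope, with a scaffold in the membrane and a central channel of flexible proteins through which cargo passes, and hepatocytes, which make up most of the liver, use them all their life without dividing often.

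The libraries held 45020377 to 64396291 counts, so that 1 count was worth 0.01553 to 0.02221 CPM (counts scaled to the size of the library) before the TMM scaling described below. Replicates of a group differed by far more than sampling noise, with a chi-square per degree of freedom of 113 to 279, and none was a copy of another. The labels do not say that each library came from a mouse of its own, so p-values measure the spread between these libraries. The 8 hepatocyte markers summed to 73300 to 108000 CPM and none was at 0. The male WT libraries stood apart from the other 6: both lay above or below all of them at 24.1% of the tested genes, against 5.51% for NT-KO males, 8.32% for WT females and 5.04% for NT-KO females. In particular, 12 ER chaperones, which the cell makes when unfolded protein builds up in the endoplasmic reticulum, summed to 3390 and 7970 CPM in WT males, 1800 and 2220 in NT-KO males, 2500 and 2010 in WT females and 2090 and 2030 in NT-KO females. Of the marker lists of other cell types in males, B cell genes were higher in NT-KO (with values given beside Nrm), while the sums of cholangiocyte genes (41.0 and 49.1 CPM in WT, 26.8 and 33.0 in NT-KO) and erythroid genes (798 and 377 against 321 and 337) were lower without overlap. The cholangiocyte sum rested on Spp1 (37.0 and 43.3 against 22.3 and 25.8), and Krt7, Krt19, Epcam and Sox9 overlapped. In males the sums for T and NK cells, Kupffer cells, neutrophils, endothelial cells, stellate cells and proliferation overlapped between genotypes. In females the T and NK cell sum was lower in NT-KO without overlap (5.65 and 4.77 CPM in WT, 3.06 and 3.73 in NT-KO). So were the endothelial sum (189 and 192 against 168 and 187) and the B cell sum. Of the endothelial genes, only Lyve1 and Oit3 were lower without overlap, while Stab2, Clec4g, Pecam1 and Kdr overlapped. The female erythroid sum was higher without overlap (138 and 138 against 260 and 141), although Hba-a1, Hbb-bs and Alas2 each overlapped. The other sums overlapped. In whole liver, fewer cells of a type and less RNA per cell cannot be told apart.

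Lbr (ENSMUSG00000004880, chr1:181815335-181843046 on GRCm38, minus strand) measured 7.99 and 6.54 CPM in WT males and 12.8 and 13.6 in NT-KO males. WT females had 7.43 and 6.96 CPM, against 13.1 and 14.0 for NT-KO females. In both sexes every NT-KO library lay above both WT libraries, and the log2 fold change was 0.86 in males (SE 0.168) and 0.91 in females (SE 0.167). The FDR of edgeR's quasi-likelihood test, adjusted over all tested genes, was 0.167 in males and 1 in females, and that of its likelihood ratio test was 0.0144 and 0.0551. Counts over the whole gene do not show the deletion itself.

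Per kilobase of exon the members spanned a 77.6-fold range, from Syne1 at 0.353 CPM per kb to Tor1a at 27.4, as means over the 8 libraries. Tor1a encodes torsin A, an ATPase between the nuclear membranes. Next came Banf1, the chromatin-bridging protein BAF, at 20.9 CPM per kb and Sec13, shared by the pore scaffold and by the COPII coat of vesicles leaving the endoplasmic reticulum, at 19.7. Over the libraries Tor1a, at 26.0 to 30.6 CPM per kb, lay just above the whole range of Banf1 (17.7 to 25.9), while Sec13 ran from 12.5 to 32.8 and overlapped both. With the longest transcript in place of all exons Sec13 came first. The lowest after Syne1, which encodes the giant KASH protein nesprin-1, were Nrm (nurim, an inner membrane protein with several membrane spans) at 0.556 and Nemp1 at 0.614, whose ranges also overlapped. Most of the pore scaffold was low: of the 8 Y complex genes, Sec13, Seh1l at 8.94 and Nup85 at 5.72 CPM per kb stood above the other 5, which lay between 0.778 and 1.53.

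Among the lamins, Lmna, which encodes lamins A and C, was the most abundant per length at 5.35 CPM per kb (4.72 to 6.17 over the libraries), followed by Lmnb2 at 2.34 (1.41 to 3.3) and Lmnb1 at 1.34 (1.16 to 1.81). The range of Lmna lay above both B-type lamins, while those of Lmnb2 and Lmnb1 overlapped. Among the HP1 genes, which encode readers of the heterochromatin mark H3K9 methylation, Cbx1 stood at 6.21 CPM per kb (5.86 to 6.93), Cbx5 at 3.76 (3.2 to 4.39) and Cbx3 at 2.51 (2.12 to 2.83), with no overlap between the 3 ranges. The order of the last pair rests on the length used, since with the longest transcript Cbx3 was at 5.14 and Cbx5 at 3.84.

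**Figure D1:**
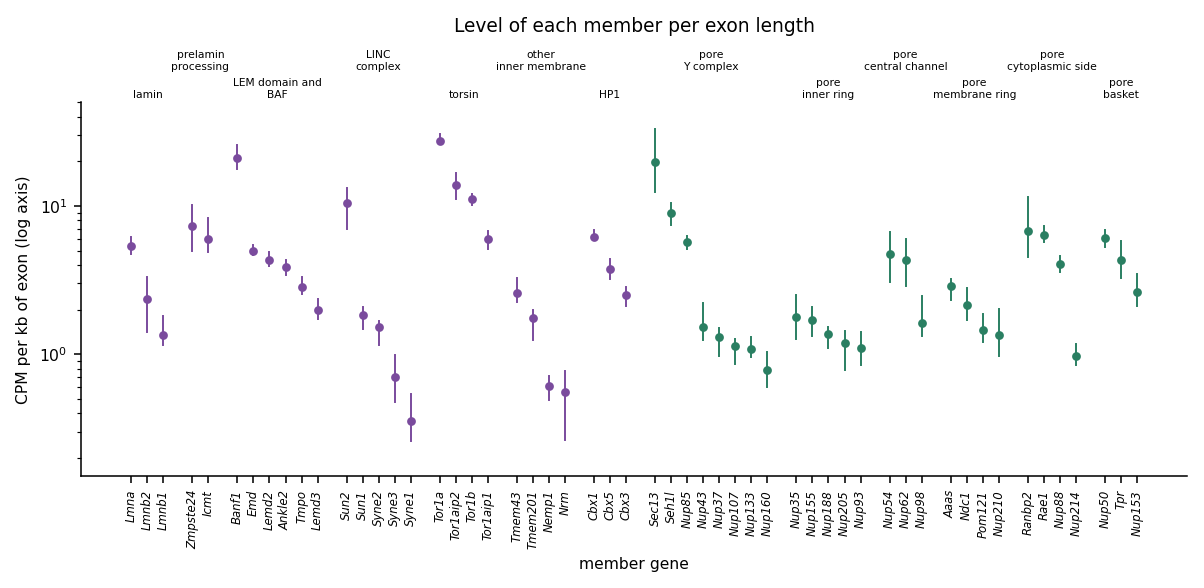
Level of the 54 members in CPM per kilobase of exon on a log axis, ordered within each role. Points are means over the 8 libraries and lines run from the lowest to the highest library, with lamina and envelope genes in purple and pore genes in green. Tor1a, Banf1 and Sec13 stand highest and Syne1, Nrm and Nemp1 lowest.

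In male liver, NT-KO values lay mostly below WT for the pore genes and on both sides of WT for the lamina and envelope genes. Of the 27 pore members 24 had a lower mean in NT-KO, with a median log2 difference of -0.209, against 49.0% of all tested genes and a median of 0.00764. Of the 27 lamina and envelope members 15 were lower and the median was -0.0074. No member passed an FDR of 0.05 in the quasi-likelihood test, which called 0.0152% of all genes, and the smallest FDR was 0.21. At an unadjusted p under 0.05 there were 5 members lower (all genes 5.5%) and 1 higher (6.03%). The likelihood ratio test, the model the authors named, called 1.94% of all genes and 1 member, Nup62, at an FDR of 0.0426, and DESeq2 called the same gene at 0.0361. Both NT-KO libraries lay below both WT libraries for 18 members (19.2% of all genes) and above them for 5 (19.6%). Of these, 12 lower and 0 higher were pore genes.

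The pore pattern differed between the 2 male NT-KO libraries. The median deviation of the 27 pore genes from their own mean over all libraries was 0.143 and 0.159 (log2) in WT males, -0.162 in male NT-KO replicate 1 and 0.107 in male NT-KO replicate 2. So replicate 2 lay close to WT and replicate 1 far below it. Without male NT-KO replicate 1 the median pore difference was -0.0768 and 19 of 27 pore genes were lower, and without replicate 2 they were -0.346 and 26. The 4 female libraries had pore medians from -0.118 to -0.00904, between the 2 male NT-KO libraries.

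**Figure D2:**
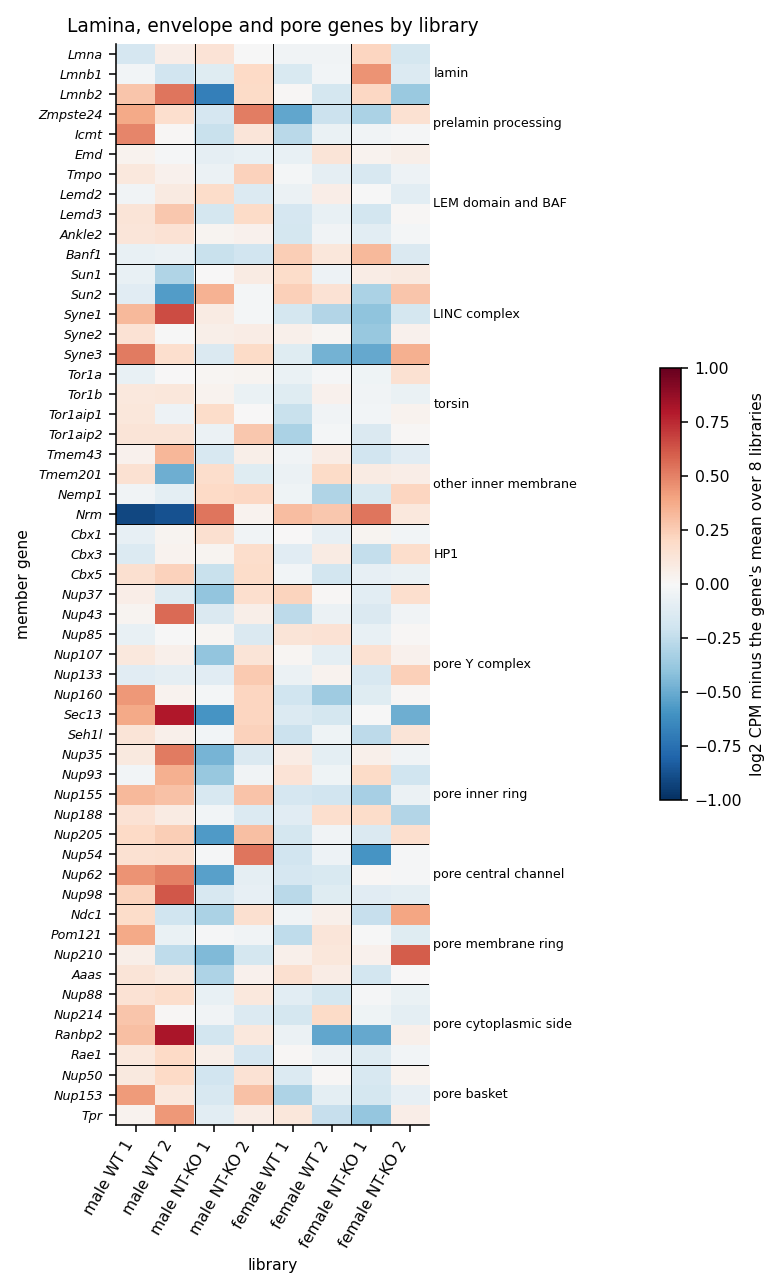
Each of the 54 members (rows, by role) in each library (columns), as log2 CPM minus the gene's mean over the 8 libraries, with red above and blue below that mean. Most pore rows are red in both male WT libraries and blue in male NT-KO replicate 1, while male NT-KO replicate 2 is mixed.

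Among the pore members, 2 genes of the central channel had the lowest p-values in males. Nup62 (ENSMUSG00000109511, chr7:44816088-44830812, plus strand) encodes a core protein of the permeability barrier. It measured 16.4 and 17 CPM in WT males, 8.2 and 11.2 in NT-KO males, 10.7 and 10.8 in WT females and 12 and 11.9 in NT-KO females. Both male WT libraries were above all others, and those of NT-KO males were in the range of the females or below it. The log2 fold change in males was -0.78 (SE 0.18, quasi-likelihood FDR = 0.21), and it ran from -1.03 to -0.57 when a library was left out.

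Nup98 (ENSMUSG00000063550, chr7:102119398-102210176, minus strand), a channel nucleoporin whose precursor also yields the scaffold protein Nup96, measured 23.5 and 30.9 CPM in WT males and 18.0 and 19.0 in NT-KO males. It measured 16.7 and 18.5 in WT females and 18.6 and 18.9 in NT-KO females. Male WT was again above the other 6 libraries, which lay close together. The male log2 fold change was -0.55 (SE 0.172, quasi-likelihood FDR = 0.297), and -0.34 without male WT replicate 2. The third channel gene, Nup54, had a log2 fold change of 0.13 (SE 0.241) in males with overlapping groups.

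The upstream sequences of these channel genes are given because they had the smallest p-values of the pore members in males. They are the 200 bases before the RefSeq start on GRCm38.p6, at chr7:44815888-44816087 on the plus strand for Nup62 and chr7:102210167-102210366 on the minus strand for the first of the starts of Nup98, read 5′ to 3′. Capitals mark a CCAAT box (CCAAT) or a GC box (GGGCGG or its reverse complement).
Nup62: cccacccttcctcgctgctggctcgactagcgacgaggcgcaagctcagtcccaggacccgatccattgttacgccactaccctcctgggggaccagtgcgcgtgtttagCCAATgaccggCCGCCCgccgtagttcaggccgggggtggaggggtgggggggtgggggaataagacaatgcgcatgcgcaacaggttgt
Nup98: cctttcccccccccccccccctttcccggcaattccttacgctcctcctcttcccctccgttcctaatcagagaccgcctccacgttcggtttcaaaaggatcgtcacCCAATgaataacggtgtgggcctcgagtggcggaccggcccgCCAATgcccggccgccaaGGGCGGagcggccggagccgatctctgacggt

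In the printed sequences the CCAAT box lies at -90 in Nup62 and at -92 and -50 in Nup98, counted from the start, and the GC box at -79 and -32. Another Nup98 start, with chr7:102209868-102210067 before it, had no CCAAT box there and GC boxes at -185, -125 and -20. For the shares below, both boxes were searched on both strands in 300 bases around each RefSeq start (250 before and 50 after). For the members, 64 promoters of 47 genes could be matched. CCAAT was in 35.9% of them and in 37.4% of all 32851 promoters, so its presence does not set these genes apart. GGGCGG was in 64.1% of the member promoters and in 35.7% of all. The full set was not limited to genes with enough reads in liver, as the members were. Whether this share sets the members apart from other such genes was not tested. The ER stress element (CCAAT and, after a gap of 9 bases, CCACG) and the heat shock element (GAA, TTC and GAA with gaps of 2 bases) had no match in a member promoter, with 0.119% and 0.603% in all promoters. The TATA box (TATAAA) was in 7.81% of the member promoters and 13.6% of all, the cAMP response element (TGACGTCA) in 3.12% and 1.79%, the E box (CACGTG) in 10.9% and 7.15%, and the D box (TTATGNAA) in 1.56% and 3.38%.

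Sec13 (ENSMUSG00000030298, chr6:113728062-113740743) was the Y complex member with the largest difference. It measured 77.8 and 104 CPM in WT males, 40.0 and 69.6 in NT-KO males, 54.5 and 53.1 in WT females and 59.7 and 42.8 in NT-KO females. Male WT lay above every other library, and the 2 male NT-KO libraries were far apart. The male log2 fold change of -0.73 (SE 0.286, quasi-likelihood FDR = 0.385) became -0.39 without male NT-KO replicate 1. Of the other Y complex genes, Nup133 was at 0.19 (SE 0.211), Nup43 at -0.36 (SE 0.242) and Nup85 and Seh1l at -0.02 and 0.01, all with overlapping groups.

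All 5 inner ring genes, whose proteins line the pore scaffold, were lower on average in NT-KO males, and 4 of them without overlap (19.2% of all genes). Nup35 (ENSMUSG00000026999) measured 6.25 and 8.38 CPM in WT males, 4.23 and 5.3 in NT-KO males, 6.15 and 5.46 in WT females and 6.06 and 5.72 in NT-KO females. Male NT-KO was below and WT males above all 4 female libraries. Its male log2 fold change was -0.62 (SE 0.218, quasi-likelihood FDR = 0.351), and -0.39 without male WT replicate 2. The other inner ring genes ranged from -0.37 (Nup93) to -0.19 (Nup188). A share of 39.2% of the 50-base stretches of Nup35 also occurs in other genes, most of it in Gm4353, which had 0.439 to 0.896 CPM, so its count is less certain.

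The 4 genes of the cytoplasmic side were lower in NT-KO males without overlap (19.2% of all genes), from -0.61 for Ranbp2 to -0.14 for Nup88. Ranbp2, the large filament protein that holds SUMO-modified RanGAP1 at the pore, measured 93.7 and 134 CPM in WT males and 66.8 and 81.9 in NT-KO males (log2 fold change -0.61, SE 0.269, quasi-likelihood FDR = 0.433), with -0.33 without male WT replicate 2. It measured 72.9 and 53.0 CPM in WT females and 53.4 and 78.8 in NT-KO females, so that 1 of the male NT-KO libraries lay within the female range. The 3 basket genes Nup50, Nup153 and Tpr lay between -0.26 and -0.16 with overlap, and the 4 membrane ring genes between -0.23 and -0.06.

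The summed ER chaperones were highest in the 2 male WT libraries, in which Nup62, Nup98, Sec13 and Ranbp2 were also highest, and male WT replicate 2 was above replicate 1 for the chaperones and for all of these 4. These 4 genes were named for their genotype or sex differences, so their match with the chaperones follows in part from that choice. Nup35, Nup155, Nup88 and Rae1 also stood highest in male WT. The pore genes as a whole did not follow the chaperones in every library. Male NT-KO replicate 2, with a pore median near that of WT, had chaperones at the female level. Nup153, Ndc1, Pom121, Nup210, Nup37, Nup107, Nup160, Seh1l, Nup155, Nup188, Nup214 and Aaas were lower in male WT replicate 2 than in replicate 1. Hspa5, the chaperone BiP, measured 898 and 2590 CPM in WT males and 336 to 538 in the other 6 libraries. None of the 12 chaperones was at 0. Summed clock genes were lower in WT males, at 533 and 596 CPM, than in NT-KO males at 747 and 661, and lay between 663 and 796 in females. The clock genes ran both ways, with Tef at 203 and 189 CPM in WT males and 293 and 243 in NT-KO males, and Clock at 33.1 and 35 against 16.7 and 24.9. The part of either programme in the pore values was not tested.

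**Figure D3:**
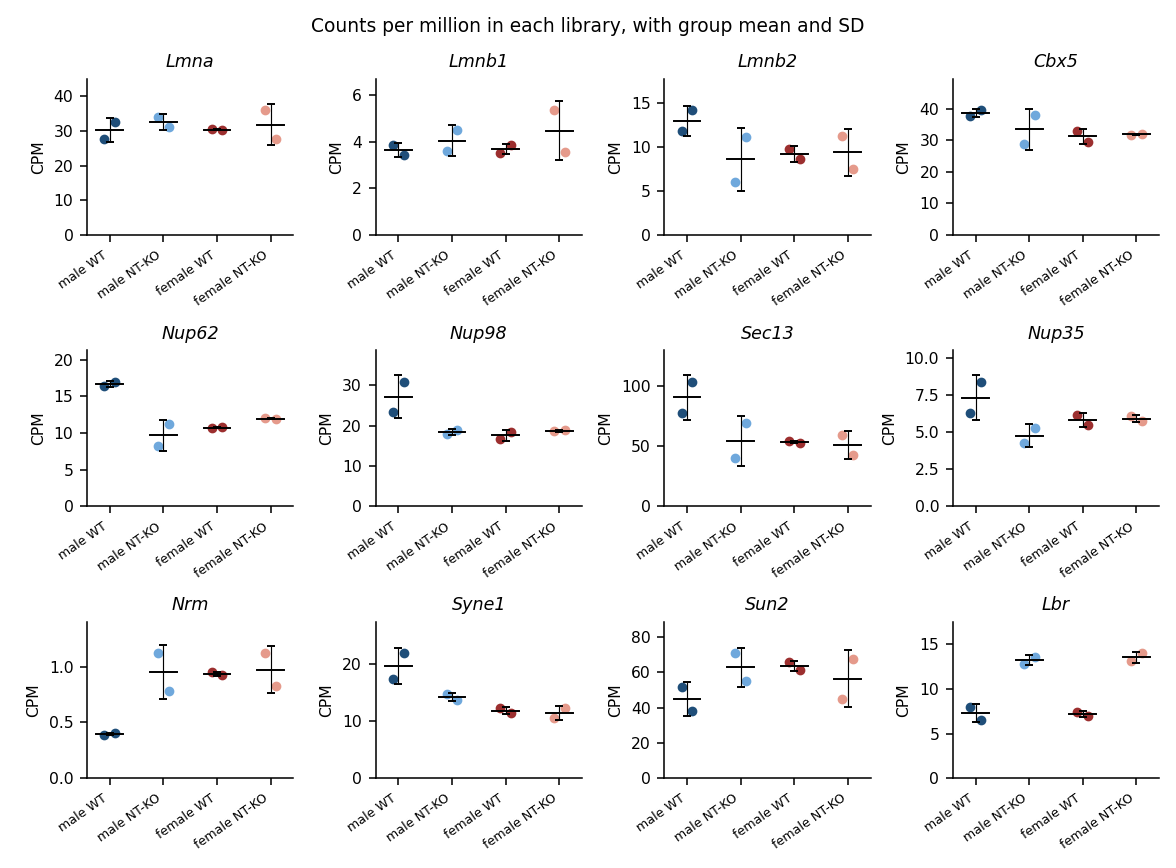
CPM in each library (points) for 11 members and Lbr, with the group mean (bar) and SD (n = 2), and with each vertical axis starting at 0. Male WT is above the other groups for Nup62, Nup98, Sec13 and Syne1 and below them for Nrm, and Lbr is higher in NT-KO of both sexes.

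The lamins showed little beyond the spread between replicates. Lmna (chr3:88480147-88509956) measured 27.7 and 32.6 CPM in WT males, 34.1 and 31.0 in NT-KO males, 30.4 and 30.3 in WT females and 36 and 27.6 in NT-KO females. Lmnb1 measured 3.86 and 3.45 CPM in WT males, 3.6 and 4.52 in NT-KO males, 3.53 and 3.86 in WT females and 5.37 and 3.58 in NT-KO females. For both genes all groups overlapped. The log2 fold changes of Lmna were 0.11 in males (95% interval -0.23 to 0.45) and 0.07 in females (-0.28 to 0.41), and those of Lmnb1 were 0.15 (-0.35 to 0.65) and 0.27 (-0.22 to 0.77).

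Lmnb2 (chr10:80901203-80918245) was more variable, at 11.8 and 14.2 CPM in WT males, 6.06 and 11.1 in NT-KO males, 9.82 and 8.59 in WT females and 11.3 and 7.52 in NT-KO females. Male WT was above all other libraries, and male NT-KO replicate 1 below them. The log2 fold change of -0.59 in males (SE 0.308, quasi-likelihood FDR = 0.499) was -0.22 without male NT-KO replicate 1 and -1.1 without replicate 2.

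The HP1 genes, whose products bind LBR, did not separate the genotypes. In males the log2 fold change was 0.09 for Cbx1 (95% interval -0.2 to 0.37), 0.16 for Cbx3 (-0.21 to 0.52) and -0.21 for Cbx5 (-0.54 to 0.12). In females they were 0.04 (-0.25 to 0.32), 0 (-0.37 to 0.36) and 0.03 (-0.3 to 0.36), and groups overlapped for all 3 genes in both sexes. These intervals, like those of the lamins, are narrower than the quasi-likelihood test implies. A change of at least up to the interval ends is therefore compatible with these libraries.

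Nrm (ENSMUSG00000059791, chr17:35861318-35865402) had the largest difference of all members but the fewest reads. It measured 0.388 and 0.401 CPM in WT males (22 and 17 counts), 1.12 and 0.781 in NT-KO males, 0.951 and 0.925 in WT females and 1.12 and 0.826 in NT-KO females. The 2 male WT libraries were below all others, which overlapped each other. The male log2 fold change was 1.26 (SE 0.363, quasi-likelihood FDR = 0.274), with 0.98 without male NT-KO replicate 1. The 7 B cell markers summed to 10 and 11.4 CPM in WT males, 41.2 and 68.7 in NT-KO males, 31.1 and 28.3 in WT females and 12.9 and 15.9 in NT-KO females. They rested on Ighm and Igkc in NT-KO males. None of the 7 markers was at 0, and the part of B cells in the Nrm value was not tested.

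The LINC complex, which couples the nucleus to the cytoskeleton, held members of both directions. Syne1 (chr10:5020917-5551482) measured 17.4 and 21.9 CPM in WT males, 14.7 and 13.7 in NT-KO males, 12.3 and 11.4 in WT females and 10.6 and 12.3 in NT-KO females. It was lower in NT-KO males than in WT males without overlap (log2 fold change -0.47, SE 0.173, quasi-likelihood FDR = 0.372), with -0.29 without male WT replicate 2. Sun2, an inner membrane partner of the nesprins, measured 51.5 and 37.9 CPM in WT males, 70.8 and 55.1 in NT-KO males, 65.7 and 61.5 in WT females and 44.9 and 67.7 in NT-KO females. Its male value was higher without overlap (0.49, SE 0.243, quasi-likelihood FDR = 0.477, with 0.29 without male WT replicate 2), but female NT-KO replicate 1 fell among the male WT values. Sun1 stood at 0.22 (SE 0.161), Syne3 at -0.32 (SE 0.321) and Syne2 at 0 (SE 0.169).

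The remaining envelope genes showed small differences between genotypes. The 6 LEM domain and BAF genes, which include emerin, lay between -0.18 and 0.02 in males and the 4 torsin genes between -0.12 and 0.06. The enzymes of prelamin A processing, Zmpste24 and Icmt, were at -0.07 and -0.31 with overlap. Zmpste24 differed more between replicates than between genotypes, with 66.1 and 57.1 CPM in WT males and 45.2 and 72.4 in NT-KO males.

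In female liver no member passed a test threshold. No member passed the FDR (0.00762% of all genes did) in the quasi-likelihood test, the likelihood ratio test or DESeq2, and 0 had an unadjusted quasi-likelihood p under 0.05, where 1.55% of all genes did. The log2 fold changes lay between -0.21 and 0.3, with a median difference of 0.0288 for all members, 0.0224 for the pore and 0.0325 for the lamina and envelope. Groups did not overlap for 7 higher members (12.2% of all genes) and 3 lower ones (14.2%). The smallest p-value, 0.251, belonged to Nup210, a membrane nucleoporin that WT females had at 14.3 and 14.9 CPM and NT-KO females at 14.2 and 21.0. Here 1 library stood out, and the log2 fold change of 0.27 (SE 0.22) was -0.04 without female NT-KO replicate 2. The next were Nup85 at -0.16 (SE 0.142), Zmpste24 at 0.3 (SE 0.257), Aaas at -0.21 (SE 0.184) and Syne2 at -0.19 (SE 0.169), which was 0.01 without female NT-KO replicate 1.

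Over both sexes together 0 members passed the FDR in the quasi-likelihood test, the likelihood ratio test and DESeq2 (0.0152% of all genes in the first). At an unadjusted quasi-likelihood p under 0.05 were Nrm, at 0.66 (SE 0.246, FDR = 0.871), and Nup62, at -0.31 (SE 0.126, FDR = 0.888), against 5.42% of all genes. For Nrm the female groups contributed little, with a log2 fold change of 0.05 (SE 0.334). For Nup62 the female value had the opposite sign, at 0.16 (SE 0.179). Aaas, which encodes the pore protein ALADIN, was the only member whose NT-KO libraries did not overlap WT in the same direction in both sexes (3.79% of all genes). It measured 8.77 and 8.54 CPM in WT males, 6.49 and 8.27 in NT-KO males, 8.98 and 8.45 in WT females and 7.06 and 8.03 in NT-KO females. The gaps were small beside the distance between the NT-KO replicates, with -0.23 (SE 0.185) in males and -0.21 (SE 0.184) in females, and the male value was -0.07 without male NT-KO replicate 1.

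The difference of the NT-KO effect between the sexes was tested directly. No member passed the FDR in the quasi-likelihood test (0.0152% of all genes), the likelihood ratio test or DESeq2, and 3 had an unadjusted quasi-likelihood p under 0.05 (7.2%). These were Nup62, Nup98 and Nrm, with male minus female effects of -0.94 (SE 0.253, FDR = 0.573), -0.64 (SE 0.242, FDR = 0.659) and 1.21 (SE 0.492, FDR = 0.671). Nup62, Nup98 and Nup88 were lower without overlap in NT-KO males and higher without overlap in NT-KO females, 3 members against 6.66% of all genes. Nup88, which anchors the cytoplasmic filaments, measured 36.3 and 37.1 CPM in WT males, 31.3 and 35.5 in NT-KO males, 30.6 and 29.1 in WT females and 32.6 and 31.4 in NT-KO females. All 4 NT-KO libraries of this gene thus lay between the 2 WT groups.

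**Figure D4:**
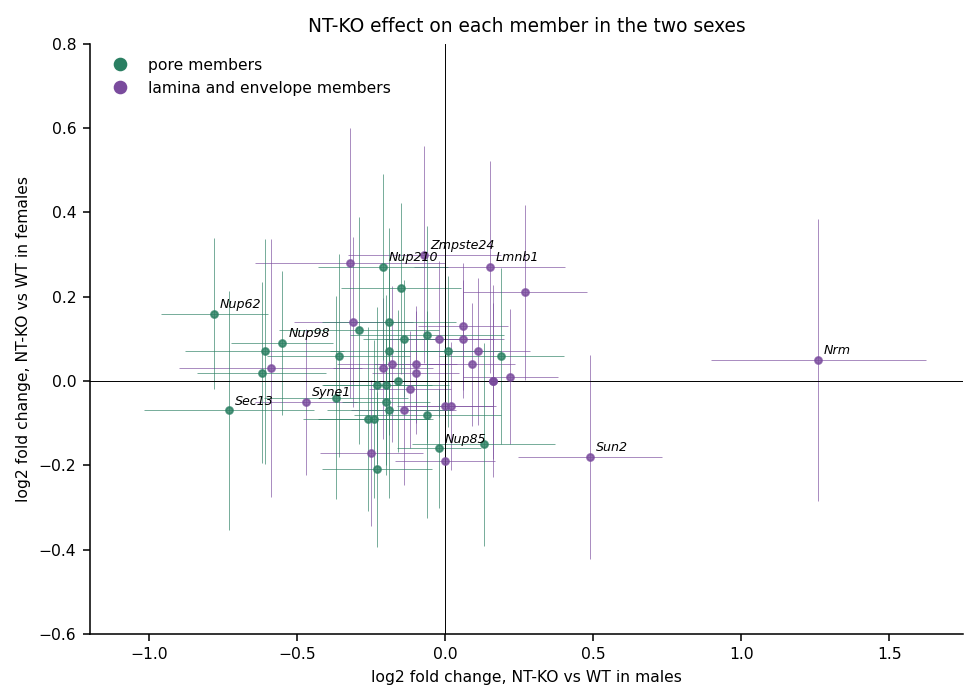
Log2 fold change of NT-KO vs WT for the 54 members in males (horizontal) and females (vertical), with lines of 1 SE, pore genes in green and lamina and envelope genes in purple. Male values run from -0.78 (Nup62) to 1.26 (Nrm) and female values only from -0.21 to 0.3, and most green points lie left of 0.

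Looked at by group, 12 members were higher and 2 lower in both male WT libraries than in all 6 others, against 12.1% and 12% of all genes. The higher ones were Lmnb2, Ankle2, Syne1, Tor1b, Sec13, Nup35, Nup155, Nup62, Nup98, Nup88, Ranbp2 and Rae1, and the lower ones Sun1 and Nrm. Male NT-KO stood apart for 2 members (Banf1 and Nup35, both lower, with 5.51% of all genes), WT females for 3 (Nup85 higher, Nup160 and Nup88 lower, with 8.32%) and NT-KO females for 0 (5.04%). This count was chosen after the values had been seen.

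**Figure D5:**
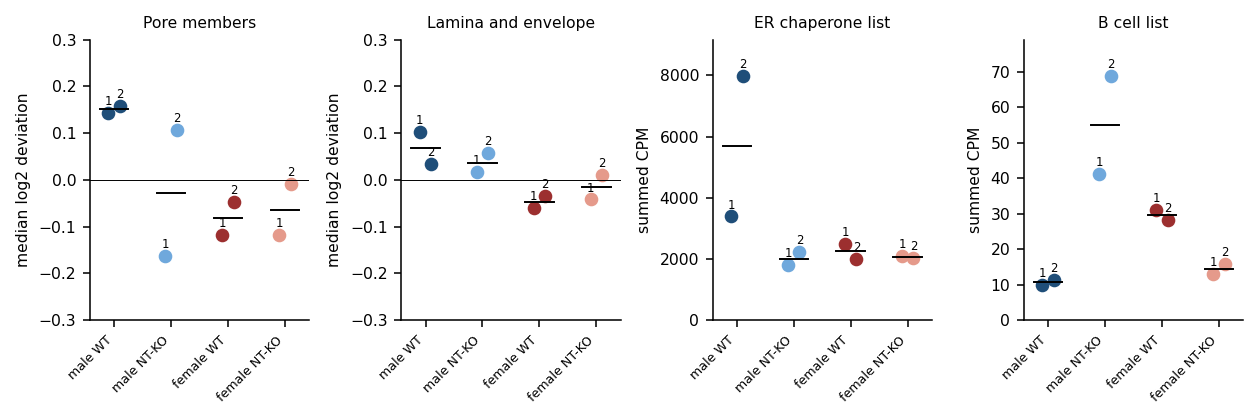
Each library as a point numbered by replicate, with the group mean as a bar. The first panels show the median log2 deviation of the 27 pore genes and of the 27 lamina and envelope genes from their own means, and the last panels the summed CPM of the ER chaperone and B cell lists. Pore genes and chaperones are highest in male WT, and male NT-KO replicate 1 is lowest for the pore.

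Between the sexes, over both genotypes, Syne1 was the only member past an FDR of 0.05 in the quasi-likelihood test (7.84% of all genes) and in the likelihood ratio test (13.4%). It was higher in males by a log2 difference of 0.52 (SE 0.122, FDR = 0.0398 in the first test and 0.0126 in the second), and the 4 male libraries, at 13.7 to 21.9 CPM, lay above the 4 female libraries at 10.6 to 12.3. This call was lost in 7 of the 8 fits that left a library out (all but the one without male WT replicate 1, FDR 0.0408 to 0.144 over the 8), with the 4 WT libraries alone, with library size only (FDR = 0.0745) and with the replicate block (FDR = 0.0538). A further member, Ankle2, was higher in all male libraries, so that 2 members were higher without overlap (7.6% of all genes) and 0 lower (8.5%). At an unadjusted p under 0.05 there were 8 higher in males (13.1%) and 2 lower (13.8%). After Syne1 these were led by Nup155 at 0.38 (SE 0.131), Ranbp2 at 0.51 (SE 0.19), Nup210 at -0.41 (SE 0.156) and Nrm at -0.64 (SE 0.246), all with overlapping groups. For Ranbp2 and Nrm the male NT-KO values lay near or within the female range. The median difference of the members was 0.125, with 0.00494 for all genes.

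Other genes of the pore, of nuclear transport, of the envelope and of heterochromatin were followed in 4 further lists. The table held 105 of the listed genes, of which 102 were tested, and in the quasi-likelihood test 0 passed the FDR for NT-KO vs WT in males or in females. At an unadjusted p under 0.05 there were 6 higher (6.03% of all genes) and 4 lower (5.5%) in males and 1 in females (1.55%). Lbr is on these lists, is 1 of the 6 in males and is the gene in females. The list of 29 transport receptors and Ran genes, which carry cargo through the pore, had 27 lower and 2 higher in NT-KO males (median -0.198), and 23 higher and 6 lower in NT-KO females (median 0.128). Of the other pore and pore assembly genes 10 of 14 were lower in males (median -0.162). The 30 other envelope genes and 29 heterochromatin genes had medians of 0.05 and 0.0176.

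Tmem33, a membrane protein of the endoplasmic reticulum and envelope, was at 97.6 and 95.9 CPM in WT males, 64.3 and 73.3 in NT-KO males, 60.1 and 60.4 in WT females and 66.1 and 67.3 in NT-KO females. As for Nup62, WT males alone stood high (log2 fold change in males -0.49, SE 0.142, quasi-likelihood FDR = 0.276). Between the sexes 3 of the listed genes passed the FDR as higher in males and 1 as lower, against 7.84% of all genes in either direction. Dpy19l1, a C-mannosyltransferase, was 64.6 and 66.3 CPM in WT males, 42.0 and 64.6 in NT-KO males and 24.0 to 28.6 in the 4 female libraries (1.14, SE 0.151, quasi-likelihood FDR = 0.00345). Tnpo3, the importer of SR splicing factors, was at 0.59 (SE 0.125, quasi-likelihood FDR = 0.028), and Tmem53, an envelope protein, at -0.81 (SE 0.161, quasi-likelihood FDR = 0.0219).

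Some counts may include reads of other genes, since the strand setting and the handling of reads with several matches are not given in the sources used here. Exons of 22 members overlap another gene, 7 members share more than 10% of their 50-base stretches with other genes, and 19 share none. Apart from Nup35 these 7 include Banf1, with 25.5% of its stretches in other genes, most in Eif1ad, and Emd, with 16.2%, most in Eif1. Nup62 overlaps the opposite-strand gene Atf5 over 2.87% of its exons, and Atf5 had 67.5 to 149 CPM, so that reads of this stretch cannot be told apart. Nrm overlaps the opposite-strand gene Ppp1r18os over 13.6%, which had at most 0.0306 CPM.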

How the data were processed

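Liver RNA was sequenced from 8 mouse libraries, 2 for each sex and genotype. Reads were trimmed (cutadapt), aligned to GRCm38 (STAR 2.6.1a, per the submitters' processing notes) and assigned to Ensembl genes (featureCounts) by the authors. The deposited counts are whole numbers with no normalization, and 0 columns were left unused. Libraries held 45020377 to 64396291 counts.

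The 54 members, their roles and the other lists were chosen with earlier results of these data known. Tests covered the 13117 genes that reached 1 CPM in 2 or more libraries and were not ribosomal RNA, microRNA or mitochondrial. Library sizes were scaled by TMM (factors 0.9259 to 1.057), and all CPM given are on that scale, apart from the filter and the worth of 1 count. With edgeR 4.0.16 in R 4.3.3, 1 model with a mean per group and no replicate block covered all 8 libraries. The quasi-likelihood test gave log2 fold changes, p and FDR (Benjamini-Hochberg over all tested genes, threshold 0.05). The standard error is the log2 fold change divided by the square root of F. Medians of lists come from log2 CPM with a prior count of 2. The authors also asked for an absolute log2 fold change over 1, given here as an alternative. The common biological coefficient of variation was 0.217. The fit was first tested on simulated data.

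Members named in the text are the lamins and HP1 genes, in each comparison the 5 with the smallest p, those past the FDR in either edgeR test, the 3 highest and lowest per kb, and those without overlap in both sexes. Other members are named to complete their role group and were chosen after their values were seen. Per-kb levels use the union of exons in the GENCODE annotation of GRCm38, and promoters are those of RefSeq. Alternatives were the likelihood ratio test, DESeq2 1.42.0, RLE factors, library size only, other filters (none beyond 1 count, a group mean, filterByExpr), robust dispersion, a replicate block, 1 sex or WT alone, the fold threshold, a prior count of 0.5, the longest transcript, and each library left out in turn.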

Additional observations from a re-analysis of the deposited data

Results flagged for a closer look

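For 3 members the NT-KO effect had opposite signs in the sexes with no overlap between genotypes in either sex. Nup62 had a male minus female effect of -0.94 on the log2 scale (SE 0.253, quasi-likelihood FDR = 0.573). Nup98 had -0.64 (SE 0.242, quasi-likelihood FDR = 0.659). Nup88 had -0.24 (SE 0.197, quasi-likelihood FDR = 0.805). None of the 3 passes the adjustment over all tested genes. Across all genes 6.66% met the same criterion.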

How the results depend on the processing

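With 2 libraries per group, single libraries decided several values. The number of members past the FDR in males was 0 in the quasi-likelihood test, 1 with the likelihood ratio test, 1 with DESeq2 (Nup62 in both) and 2 without a filter on low counts (Nup62 and Sec13). In females, over both sexes and for the difference between the sexes it was 0 in every alternative run. Between the sexes it was 1 (Syne1), and 3 without a filter (Syne1, Ranbp2, Zmpste24). It was 0 with library size only, with the WT libraries alone, with the fold threshold and with the replicate block (Syne1 FDR = 0.0538). Leaving a library out could remove the call of Syne1 or bring in Nup155. Their log2 differences then ran from 0.43 to 0.6 for Syne1 and from 0.26 to 0.48 for Nup155. When a group was left with 1 library, that library was assumed to vary like the others. The cause of these changes was not tested.

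The median of the members in males was -0.142 and ran from -0.214 to -0.0271 with a library left out, the latter without male NT-KO replicate 1. The median of the pore members ran from -0.346 to -0.0768. Over both sexes the median ran from -0.107 to 0.00975, changing sign without male NT-KO replicate 1. For the difference between the sexes it was -0.144, with -0.234 to -0.0501 when a library was left out and -0.0518 with library size only. The last setting moved the median of all genes from 0.00833 to 0.101 in that contrast and from 0.00494 to -0.124 between the sexes, where the members' median was -0.00433. Relative to all genes the members kept their direction in these contrasts. The span of levels per kb was 77.6-fold, and 76.4-fold with the longest transcript.

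For 45 gene and comparison pairs (the genes with the smallest p or past the FDR, Lbr, and in each sex the lamins, HP1 genes, Nrm and those without overlap in both sexes), 784 of 800 values kept their direction. The other 16 values were reversed. In females these were Nup210 at -0.04 without NT-KO replicate 2 (-0.04 to 0.53 over the libraries left out). Without female NT-KO replicate 1 they were Syne2 at 0.01 (-0.41 to 0.01), Lmna at -0.14 (-0.14 to 0.25), Lmnb1 at -0.05 (-0.05 to 0.54), Lmnb2 at -0.29 (-0.29 to 0.29), Nrm at -0.18 (-0.18 to 0.26) and Cbx3 at 0.19 (-0.23 to 0.19). Without female WT replicate 2 they were Lmnb2 at -0.07, Cbx1 at 0 (0 to 0.08), Cbx3 at 0.1 and Cbx5 at -0.04 (-0.04 to 0.11). Cbx3 in females was also at 0 with filterByExpr and without male NT-KO replicate 2. In males they were Cbx1 at -0.02 without NT-KO replicate 1 (-0.02 to 0.18), Lmna at 0 without WT replicate 1 (0 to 0.23) and Lmnb1 at -0.03 without NT-KO replicate 2 (-0.03 to 0.3). At an unadjusted p under 0.05 in males there were 6 members, with 10 when male NT-KO replicate 2 was left out and 3 when male WT replicate 2 was. Libraries with the same replicate number did not deviate together (r = -0.00665 in males and 0.023 in females). With 2 libraries per group, this cannot show whether WT and NT-KO libraries were matched, by number or otherwise. The replicate block changed no call other than that of Syne1.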
